A study of Homo sapiens with 8 samples.

Results

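The genes described here are 10 genes of fat storage and fat release in adipocytes: FABP4, LPL, CIDEC, PLIN1, ADIPOQ, LIPE, PNPLA2, PPARG, CEBPA and CD36. They were chosen by name with earlier results of these arrays known, FABP4, LPL and CIDEC among those results, and were read through the platform's probe annotation. Each of the 10 genes had a single probe set, out of 17491 genes measured, so the rule of taking the probe set with the highest mean over the 8 arrays had no choice to make. Their differences between groups are therefore a description and not independent evidence.

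Expression was measured on 8 one-colour Affymetrix arrays of whole lymph nodes holding metastases from 4 vehicle-treated and 4 doxycycline-treated mice. All mice were BALB/c nude, an athymic strain, and carried tumours under the skin of SkMel147, an established line of human skin melanoma, in which doxycycline served to switch on Omomyc, a dominant-negative form of the transcription factor MYC. Both groups thus held the same tumour line, and differed in whether the drinking water held doxycycline or vehicle alone, begun at a tumour volume of about 750 mm3; nodes were taken 2 days after treatment. The age of the mice, the promoter that drives Omomyc and whether the line is a single clone are not stated in the labels. The nodes were homogenized whole, so RNA of the mouse host and of the human tumour cells was hybridized to probes designed for human genes, and how far these probes read mouse transcripts was not measured. A fat cell in such a node would be a host cell.

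Adipocytes store energy as triglyceride in a large lipid droplet. Fatty acids are released from circulating lipoproteins by lipoprotein lipase (LPL), enter the cell with the help of the membrane protein CD36, and are carried by the fatty acid binding protein FABP4. CIDEC and perilipin 1 (PLIN1) coat and shape the droplet, and the lipases PNPLA2 and LIPE break its triglyceride down in sequence when fat is mobilized. PPARG and CEBPA are the transcription factors that drive adipocyte formation and keep these genes on, and ADIPOQ encodes adiponectin, a hormone secreted by fat cells. LPL and CD36 are also made by muscle and macrophages, CD36 and FABP4 by capillary endothelium, and CEBPA by myeloid cells.

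Because CEBPA and PPARG are members and act through DNA, the 250 bases before the annotated starts were searched on both strands for the C/EBP core TTGCNNAA and for a perfect PPAR element, a direct repeat of AGGTCA spaced by 1 base. RefSeq windows (GRCh38.p14) matched 8 of the 10 genes with 20 starts. FABP4 and LPL were not matched. The C/EBP core was found in 4 of the 20 windows, from 3 genes (CIDEC, PPARG and PLIN1), against 9.05% of all 35116 windows of the same length. Several windows belong to the same gene, and some of the 6 PPARG windows overlap. The windows are thus not independent, and no excess is read from this share. The PPAR element was found in 0 of the 20 windows and in 0.0171% of all windows. The 4 windows with the C/EBP core, marked in capitals, are shown. They belong to CIDEC, with separated groups, and PPARG, with a smaller difference the same way. They also include that of PLIN1, the only member with a difference the other way. The windows are the human reference, whereas fat cells of the node carry the mouse genes.
CIDEC, first start, chr3:9880254-9880503, minus strand: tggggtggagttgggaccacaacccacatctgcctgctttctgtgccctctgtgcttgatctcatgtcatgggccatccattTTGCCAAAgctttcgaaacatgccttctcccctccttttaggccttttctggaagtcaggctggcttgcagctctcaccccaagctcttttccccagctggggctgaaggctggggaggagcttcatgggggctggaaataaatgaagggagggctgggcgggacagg
CIDEC, second start, chr3:9878813-9879062, minus strand: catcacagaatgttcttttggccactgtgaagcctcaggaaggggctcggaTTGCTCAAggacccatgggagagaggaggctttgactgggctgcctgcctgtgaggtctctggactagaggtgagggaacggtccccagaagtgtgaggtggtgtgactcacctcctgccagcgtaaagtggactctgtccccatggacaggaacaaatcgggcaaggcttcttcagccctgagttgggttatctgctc
PPARG, the last of its 6 starts, chr3:12351167-12351416, plus strand: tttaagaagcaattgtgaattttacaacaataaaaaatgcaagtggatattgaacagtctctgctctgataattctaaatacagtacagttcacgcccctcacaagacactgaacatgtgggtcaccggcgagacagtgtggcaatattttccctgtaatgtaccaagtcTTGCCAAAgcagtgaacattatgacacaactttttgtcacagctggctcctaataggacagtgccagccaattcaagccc
PLIN1, chr15:89679368-89679617, minus strand: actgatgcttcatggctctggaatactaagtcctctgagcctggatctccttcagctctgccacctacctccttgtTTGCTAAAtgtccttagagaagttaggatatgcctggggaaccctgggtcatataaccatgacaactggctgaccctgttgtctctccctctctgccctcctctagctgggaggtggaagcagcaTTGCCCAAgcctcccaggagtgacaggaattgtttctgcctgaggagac
In the first CIDEC window the core ended 160 bases before the start, in the second 191, and in the PPARG window 72. PLIN1 held 2 cores, ending 166 and 41 bases before its start. A match is a description of letters, not a bound site.

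The arrays were alike in overall brightness, with medians between 5.07 and 5.12 and lower quartiles between 3.96 and 3.98 (log2 values). Vehicle replicate 1 stood apart, with values that correlated with those of the remaining 7 at 0.941 on average over genes, against 0.969 to 0.974 for the others. Each member is given with the array or arrays that move its difference most, and list medians and other genes that move by over 1.5 times without vehicle replicate 1 are given both ways. Of the tissue's own markers, 11 melanoma and melanocyte genes and 8 lymphocyte genes were measured. MLANA, a melanocyte antigen, averaged 5.51 ± 0.62 (SD, n = 4) in vehicle nodes and 5.94 ± 0.19 (SD, n = 4) in doxycycline nodes. Vehicle replicate 1 read 4.60 and the other vehicle arrays 5.63 to 5.98, and the MLANA difference of 0.43 was 0.13 without it. PTPRC, the pan-leukocyte surface phosphatase CD45, averaged 5.15 ± 0.53 (SD, n = 4) and 5.65 ± 0.11 (SD, n = 4). Vehicle replicate 2 read 5.93, above every doxycycline array (5.54 to 5.80), and the other vehicle arrays 4.81 to 5.05. SLC45A2, with the smallest limma p of the melanoma and melanocyte list, differed by 0.39 ± 0.20 (SE). Below 0 were 3 genes of that list, the lowest PAX3 (-0.20, or -0.32 without vehicle replicate 1). Below 0 in the lymphocyte list were 3 genes as well, the lowest CD3G (-0.07, or -0.16 without vehicle replicate 1). Signal over background per probe set was not assessed, so no marker can be called absent.

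Doxycycline against vehicle asks how the nodes differed 2 days after Omomyc was to be induced. No group received doxycycline with tumours lacking Omomyc, so the drug itself and Omomyc cannot be told apart. Of the 10 fat storage genes, 9 had a difference above 0 and 1, PLIN1, below 0. The largest differences were those of LPL (0.67 ± 0.20 SE on the log2 scale), CIDEC (0.62 ± 0.18 SE) and FABP4 (0.58 ± 0.13 SE), folds of 1.59, 1.54 and 1.49. The median difference of the 10 genes was 0.36, against 0.02 over all genes, of which 55.5% had a difference above 0. None of the 10 passed over all genes: limma (Benjamini-Hochberg) gave each an adjusted p of 0.987, and 0 of 17491 genes were called, a share of 0% (665 genes had an unadjusted p under 0.05). At an unadjusted limma p under 0.05, 4 of the 10 were higher, FABP4, CIDEC, LPL and PPARG, and 0 lower, where 2.49% of all genes were higher and 1.31% lower. Without vehicle replicate 1, the median was 0.27, 9 members were above 0 (50.8% of all genes), 4 were higher at an unadjusted limma p under 0.05 (2.66% of all genes), and 3 had groups that did not overlap (3% of all genes). The members were chosen with these differences in view, and nothing is read from the excess. In whole nodes, more fat cells, more RNA of these genes per cell and a change in other host cells or in the human tumour cells cannot be told apart.

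**Figure D1:**
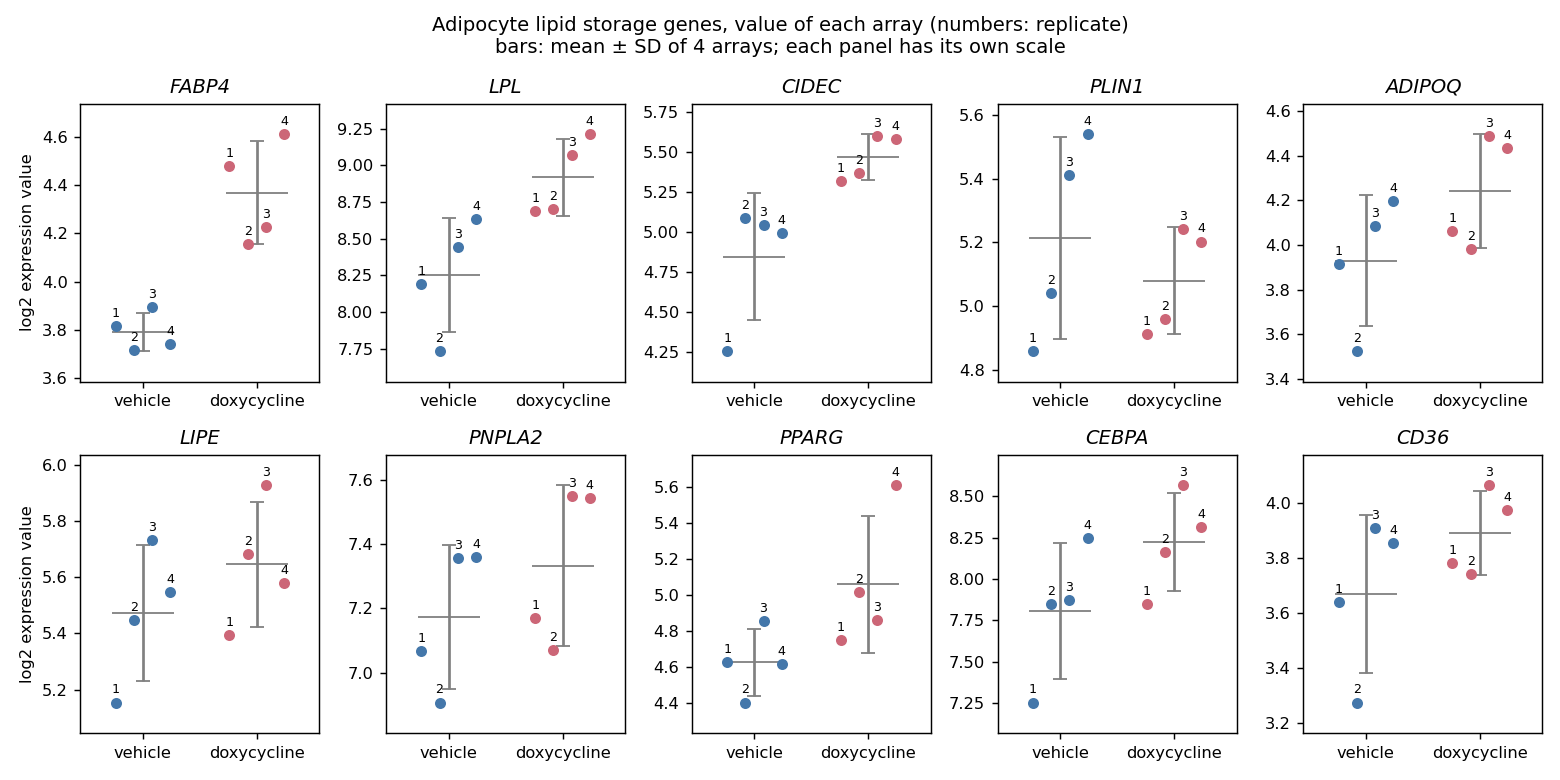
Log2 expression value (y axis, a separate scale in each panel) of the 10 fat storage genes on each array (points, numbered by replicate) in 4 vehicle and 4 doxycycline nodes (x axis), with mean ± SD. The groups are separated for FABP4, LPL and CIDEC and overlap for the other 7 genes.

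The genes of fatty acid supply come first. FABP4, the carrier, read 3.82, 3.71, 3.89 and 3.74 in vehicle replicates 1 to 4 and 4.48, 4.15, 4.23 and 4.61 in doxycycline replicates 1 to 4. All 4 doxycycline arrays lay above all 4 vehicle arrays, and the vehicle arrays were close together, with an SD of 0.08 against 0.21 with doxycycline. The difference of 0.58 had a 95% confidence interval from 0.29 to 0.87 and was 0.58 without vehicle replicate 1. With each array left out in turn, it lay between 0.50 (without doxycycline replicate 4) and 0.65 (without doxycycline replicate 2). FABP4 was a dim probe set, at percentile 27.2 of brightness among genes.

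LPL, the enzyme on the capillary wall that frees fatty acids from lipoproteins, read 8.19, 7.73, 8.44 and 8.63 with vehicle and 8.69, 8.70, 9.07 and 9.21 with doxycycline. The groups did not overlap, though the gap was narrow: the highest vehicle array, replicate 4, lay just under the lowest doxycycline array, replicate 1. LPL was among the brightest probe sets of the array, at percentile 98.8. Its difference lay between 0.50 (without vehicle replicate 2) and 0.80 (without vehicle replicate 4), and was 0.65 without vehicle replicate 1.

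CD36, the fatty acid translocase, read 3.64, 3.27, 3.91 and 3.85 with vehicle and 3.78, 3.74, 4.07 and 3.97 with doxycycline. Doxycycline replicates 3 and 4 were above every vehicle array, while replicates 1 and 2 lay within the vehicle range. The difference was 0.22 ± 0.16 (SE), with a 95% confidence interval from -0.12 to 0.56, and 0.09 without vehicle replicate 2, the lowest array. CD36 was dim as well, at percentile 20.4.

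The coat proteins of the droplet differed in sign. CIDEC, which lets small droplets fuse into a large one, read 4.26, 5.09, 5.05 and 4.996 with vehicle and 5.32, 5.37, 5.60 and 5.58 with doxycycline. Vehicle replicate 1 was far below its group, but the other 3 vehicle arrays also lay below every doxycycline array. The CIDEC difference was 0.42 ± 0.13 (SE) without vehicle replicate 1.

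PLIN1, the perilipin that guards the droplet from lipases, read 4.86, 5.04, 5.41 and 5.54 with vehicle and 4.91, 4.96, 5.24 and 5.20 with doxycycline. Here the 2 highest arrays were vehicle replicates 3 and 4, and no doxycycline array lay above the vehicle range. The difference was -0.13 ± 0.16 (SE), with a 95% confidence interval from -0.49 to 0.22. It was -0.25 without vehicle replicate 1, the lowest array, and -0.02 without vehicle replicate 4, the highest.

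**Figure D2:**
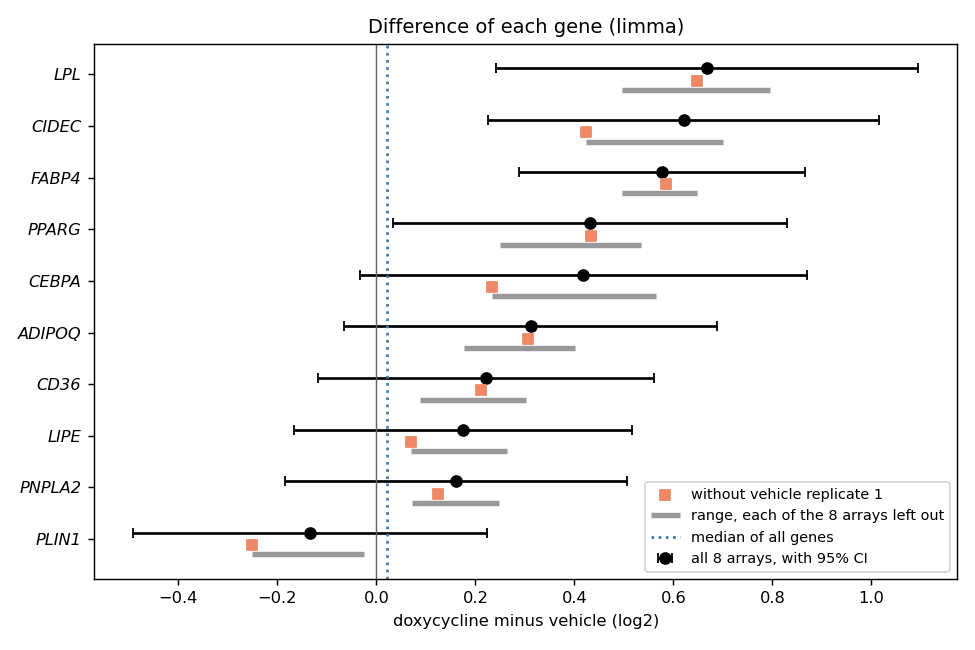
Doxycycline minus vehicle on the log2 scale (x axis) for each of the 10 genes (y axis): circles with 95% confidence intervals from all 8 arrays, squares without vehicle replicate 1, grey bars the range with each array left out. The intervals of LPL, CIDEC, FABP4 and PPARG lie above 0 before adjustment over genes, and the dotted line marks the median of all genes, 0.02.

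The lipases that empty the droplet showed smaller differences. PNPLA2 (adipose triglyceride lipase), which takes the first fatty acid off a triglyceride, read 7.07, 6.91, 7.36 and 7.36 with vehicle and 7.17, 7.07, 7.55 and 7.54 with doxycycline. In each group replicates 3 and 4 were the high arrays, and the groups overlapped. The difference of 0.16 ± 0.16 (SE) went to 0.07 without vehicle replicate 2 and to 0.25 without doxycycline replicate 2.

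LIPE (hormone-sensitive lipase), which takes the next fatty acid, read 5.15, 5.45, 5.74 and 5.55 with vehicle and 5.39, 5.68, 5.93 and 5.58 with doxycycline. Vehicle replicate 1 was the lowest array and doxycycline replicate 3 the highest, and the rest were mixed. The difference was 0.17 ± 0.16 (SE), with a 95% confidence interval from -0.17 to 0.52, 0.07 without vehicle replicate 1 and 0.08 without doxycycline replicate 3.

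Of the transcription factors, PPARG, the nuclear receptor that directs adipocyte formation, read 4.63, 4.41, 4.86 and 4.62 with vehicle and 4.75, 5.02, 4.86 and 5.61 with doxycycline. Doxycycline replicate 4 lay well above all other arrays, and doxycycline replicate 1 fell within the vehicle range. Doxycycline replicate 3 (4.863) was nearly level with the highest vehicle array, replicate 3 (4.859). The difference of 0.43 ± 0.18 (SE) was 0.25 without doxycycline replicate 4.

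CEBPA, its partner, read 7.25, 7.85, 7.87 and 8.25 with vehicle and 7.85, 8.16, 8.56 and 8.32 with doxycycline. The groups overlapped, with 2 doxycycline arrays above every vehicle array and vehicle replicate 1 below all others. The difference was 0.42 ± 0.21 (SE), and 0.23 without vehicle replicate 1.

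ADIPOQ, the adipocyte hormone and the most restricted fat cell marker of the set, read 3.91, 3.52, 4.08 and 4.20 with vehicle and 4.06, 3.98, 4.49 and 4.43 with doxycycline. Doxycycline replicates 3 and 4 were above the vehicle range and replicates 1 and 2 within it. The difference was 0.31 ± 0.17 (SE), with a 95% confidence interval from -0.06 to 0.69, and 0.18 without vehicle replicate 2. Its probe set was dim, at percentile 27.3.

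Across the 10 genes the same few arrays tended to be the lowest and the highest. The groups did not overlap for 3 of the 10 genes, against 1.76% of all genes separated in the same direction. Doxycycline replicate 3 was the highest of the 8 arrays for 6 genes and doxycycline replicate 4 for 3, whereas vehicle replicate 2 was the lowest for 6 and vehicle replicate 1 for 4. The mean deviation of the 10 genes from their own 8-array means was 0.31 and 0.36 in doxycycline replicates 3 and 4, and -0.37 and -0.35 in vehicle replicates 1 and 2. The remaining 4 arrays lay close together whichever their group, at 0.01 and 0.02 in vehicle replicates 3 and 4 and at -0.01 and 0.03 in doxycycline replicates 1 and 2. With any single array left out, FABP4, LPL and CIDEC stayed separated. PPARG became separated without vehicle replicate 3. Without doxycycline replicate 1 it was separated only barely, at 4.863 in doxycycline replicate 3 against 4.859 in vehicle replicate 3.

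The members differed in how closely they followed one another from array to array. Likeness was measured as the root mean square difference between 2 genes' values, each centred on its 8-array mean, so a small value means a like pattern. Of the 45 pairs, the closest were ADIPOQ with CD36 (0.0896), CD36 with PNPLA2 (0.0921) and ADIPOQ with PNPLA2 (0.101). These 3 genes shared a low vehicle replicate 2 and high doxycycline replicates 3 and 4. Among 17490 other genes CD36 was the second closest to ADIPOQ (rank 2) and PNPLA2 ranked 4, and ADIPOQ was at rank 11 for LPL. CIDEC and CEBPA formed another close pair (0.201), both lowest in vehicle replicate 1. FABP4 was nearest to PPARG among the members (0.220, rank 236 of 17490), and the widest pair was LPL with PLIN1 (0.438). The points of each pair share the same 8 arrays, and dim or little-varying genes come out close more easily.

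**Figure D3:**
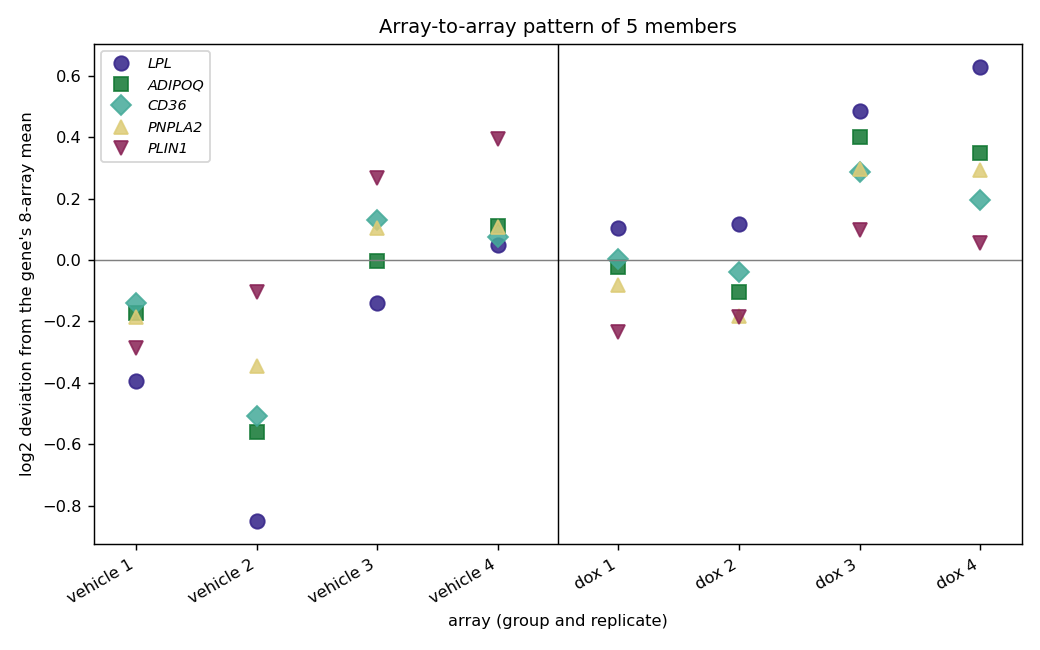
Log2 deviation from the gene's own 8-array mean (y axis) on each array (x axis) for LPL, ADIPOQ, CD36, PNPLA2 and PLIN1. ADIPOQ, CD36 and PNPLA2 move together, lowest in vehicle replicate 2 and highest in doxycycline replicates 3 and 4, LPL shows the same with a wider swing, and PLIN1 is highest in vehicle replicates 3 and 4.

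Outside the 10 genes, the patterns closest to FABP4 were those of ASAP3, a regulator of ARF GTPases (root mean square difference 0.122 over 8 arrays), OR4C6, an olfactory receptor (0.133), CRIP1, a LIM domain protein (0.140), FGFR1, a growth factor receptor (0.145), and HOMEZ, a homeobox gene (0.148). ASAP3 read 7.41, 7.21, 7.42 and 7.54 with vehicle and 8.09, 7.60, 7.77 and 7.96 with doxycycline. Like FABP4, it was lower in all vehicle arrays and highest in doxycycline replicates 1 and 4. It was picked for its likeness to FABP4 on these same 8 arrays, so the shared pattern is no separate evidence.

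Related pathways had medians close to that of all genes. Among 18 measured genes of triglyceride synthesis and lipid droplets, 11 had a difference above 0 and the median was 0.02 (9 and 0.01 without vehicle replicate 1), and limma called 0 over all genes. PLIN2, the perilipin that coats droplets in most cell types, lay the other way from LPL and CIDEC. It read 5.99, 5.24, 5.23 and 4.93 with vehicle and 4.74, 4.35, 4.63 and 4.82 with doxycycline, so that every doxycycline array was below every vehicle array (difference -0.71 ± 0.20 SE, and -0.50 without vehicle replicate 1). HILPDA, a small inhibitor of PNPLA2 found on droplets, read 6.11, 6.04, 6.03 and 5.92 with vehicle and 5.73, 5.61, 5.69 and 5.83 with doxycycline. Its groups were also separated downward (difference -0.31 ± 0.11 SE), as in 0.863% of all genes. FITM2, which helps droplets bud from the endoplasmic reticulum, was separated upward by 0.23 ± 0.11 (SE), as were 1.76% of all genes.

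Among 15 measured genes of lipolysis and its control, 13 had a difference above 0, with a median of 0.05, and 8 without vehicle replicate 1. AQP7, the glycerol channel of fat cells, was at 6.11 ± 0.19 (SD, n = 4) in vehicle nodes and 6.38 ± 0.22 (SD, n = 4) in doxycycline nodes, and AQP3, another glycerol channel, at 5.96 ± 0.20 and 6.23 ± 0.19 (SD, n = 4). The AQP3 difference of 0.27 was 0.18 without vehicle replicate 1. LIPA, the lysosomal lipase, differed by 0.23 ± 0.16 (SE). Of 14 measured genes of lipoprotein lipolysis and fatty acid uptake, 7 were above 0, and the median was 0.00, or 6 and -0.02 without vehicle replicate 1. Here SLC27A1, a fatty acid transporter, differed by 0.34 ± 0.16 (SE), VLDLR, a receptor that hands lipoproteins to LPL, by -0.26 ± 0.13 (SE) and APOC3, an inhibitor of LPL, by 0.31 ± 0.18 (SE). The APOC3 difference was 0.12 without vehicle replicate 1.

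Of 26 measured genes of adipogenic transcription, 16 were above 0, with a median of 0.05, against 14 and a median of 0.01 without vehicle replicate 1. RXRG and RXRB encode retinoid X receptors, the dimer partners of PPARG. RXRG was at 4.01 ± 0.10 (SD, n = 4) in vehicle nodes and 4.38 ± 0.21 (SD, n = 4) in doxycycline nodes, and RXRB at 5.57 ± 0.24 and 5.97 ± 0.17 (SD, n = 4). Both were separated upward, by 0.37 ± 0.13 (SE) and 0.40 ± 0.15 (SE), as were 1.76% of all genes. PRDM16, a regulator of brown fat, differed by 0.24 ± 0.13 (SE), and by 0.15 without vehicle replicate 1.

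Among 22 measured adipokines and other adipocyte markers, 15 were above 0, and the median was 0.07. LEP, the fat hormone leptin, was at 4.87 ± 0.11 (SD, n = 4) in vehicle nodes and 5.22 ± 0.35 (SD, n = 4) in doxycycline nodes. SLC7A10, an amino acid transporter of fat cells, differed by 0.34 ± 0.14 (SE), and ACVR1C, an activin receptor of fat cells, by 0.54 ± 0.23 (SE), or 0.32 without vehicle replicate 1. Their groups overlapped. In all 5 pathway lists limma called 0 genes in either direction.

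**Figure D4:**
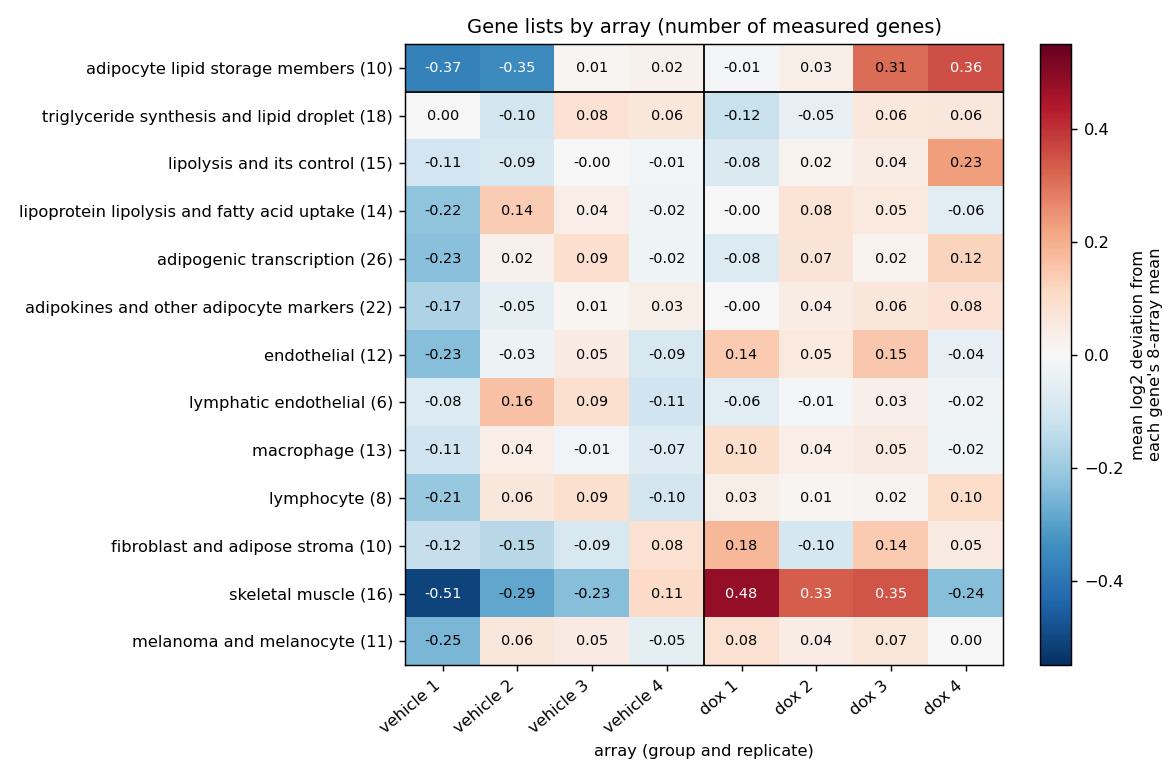
Mean log2 deviation of each list's measured genes from their own 8-array means (colour and number) on each array (x axis), for the 10 fat storage genes (top row), 5 lists of related pathways and 7 lists of cell type markers (y axis, number of measured genes). The fat storage genes are lowest in vehicle replicates 1 and 2 and highest in doxycycline replicates 3 and 4, and skeletal muscle markers are low in doxycycline replicate 4.

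Markers of other cell types that could hold these transcripts are given beside the members. Of 16 measured skeletal muscle genes, 16 were above 0, with a median difference of 0.44 (15 and 0.32 without vehicle replicate 1), larger than that of the fat storage genes in both settings. The muscle list's mean deviation ranged from -0.51 to 0.11 in vehicle arrays and from -0.24 to 0.48 in doxycycline arrays. Doxycycline replicate 4, where the fat storage genes were at 0.36, had the muscle list at -0.24, between vehicle replicate 2 (-0.29) and vehicle replicate 3 (-0.23). DES, the muscle filament desmin, differed by 0.61 ± 0.19 (SE), MYH4, a fast myosin, by 0.80 ± 0.25 (SE) and TTN, the giant protein titin, by 0.85 ± 0.31 (SE). TNNT3 had the largest upward difference of the list and of all genes, 1.01 ± 0.46 (SE). Of the 16 muscle genes, 0 had separated groups. In doxycycline replicate 4, MYH4 (4.80) and TTN (4.40) lay within the vehicle range. The part of muscle tissue in the LPL and CD36 differences was not tested.

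Endothelial markers, of which 9 of 12 were above 0, had a median of 0.11 and list means from -0.23 to 0.05 with vehicle and from -0.04 to 0.15 with doxycycline. TEK, a vessel receptor, differed by 0.50 ± 0.16 (SE). GPIHBP1, the endothelial anchor of LPL, read 6.20, 6.38, 6.38 and 6.36 with vehicle and 6.54, 6.54, 6.49 and 6.52 with doxycycline. Its groups were separated like those of LPL and of 1.76% of all genes, but by only 0.19 ± 0.11 (SE). ESAM, an adhesion protein of vessels, differed by 0.43 ± 0.25 (SE), and by 0.15 without vehicle replicate 1.

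Lymphatic endothelial markers had 2 of 6 genes above 0, with a median of -0.06 (-0.14 without vehicle replicate 1), and list means from -0.11 to 0.16 with vehicle and from -0.06 to 0.03 with doxycycline. In that list CCL21, a homing chemokine, differed by 0.22 ± 0.15 (SE), and PROX1, the lymphatic master regulator, by -0.17 ± 0.16 (SE). Macrophage markers had 9 of 13 above 0 and a median of 0.04 (7 and 0.09 without vehicle replicate 1), with list means from -0.11 to 0.04 with vehicle and from -0.02 to 0.10 with doxycycline. CD163, a scavenger receptor of macrophages, was separated upward (0.29 ± 0.12 SE), as were 1.76% of all genes. It had the largest difference of that list. Below 0 were 4 macrophage markers, the lowest C1QA (-0.09, or -0.19 without vehicle replicate 1).

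Fibroblast and adipose stroma markers had 8 of 10 above 0 and a median of 0.12, with list means from -0.15 to 0.08 and from -0.10 to 0.18. PDGFRA, a receptor of fibroblasts and fat cell precursors, differed by 0.36 ± 0.14 (SE), and DPT, a dermal matrix protein also made by adipose stroma, by 0.47 ± 0.29 (SE). Lymphocyte markers (5 of 8 above 0, median 0.01, list means from -0.21 to 0.09 and from 0.01 to 0.10) and melanoma and melanocyte markers (8 of 11, median 0.11, list means from -0.25 to 0.06 and from 0.00 to 0.08) were lowest in vehicle replicate 1. Without that array the lymphocyte median was -0.01 and the melanoma and melanocyte median 0.09. In all 7 marker lists limma called 0 genes over all genes. The part of these cell types in the fat storage differences was not tested.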

How the data were processed

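The authors deposited log2 values per probe set, summarized with RMA per the submitters' processing notes; for the RMA version and genome build, the sources used here give nothing. Of 18565 probe sets, 17509 had 1 gene symbol in the platform annotation, all matched to RefSeq, giving 17491 genes (the brightest probe set for 16 genes with several). Groups came from the sample titles, which call the samples biological replicas. Differences are doxycycline minus vehicle from limma 3.58.1 in R 4.3.3, two-sided, with p-values adjusted over all genes (Benjamini-Hochberg) and a threshold of 0.05. The median SE of a difference was 0.150; precision is limited by the number of arrays. The fit was tested on simulated data and recovered 81 of 100 genes changed by 1 log2 unit. No member differed by as much, so this count does not describe recovery of differences of their size. The members and gene lists were chosen with earlier results of these data known. Named were the 10 members, up to 3 other genes with the smallest p per list, and the 5 genes most like FABP4. Some genes with differences below 0, and TNNT3, were added to show the range of a list. Files were read with data.table (1.17.8) and plots drawn with matplotlib 3.10.9 in Python 3.11.15. Alternatives were other normalizations, filters on dim genes, variance models, array weights, the replicate number as a block, and each array left out.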

Additional observations from a re-analysis of the deposited data

Results flagged for a closer look

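Groups of 4 arrays were searched for a single array far from the other 3, over 52 genes and 104 groups, and 6 were found, where chance alone gives about 1 in 20 groups. One was a member: CIDEC read 4.26 in vehicle replicate 1, while the other 3 vehicle arrays read 4.996 to 5.09. GPIHBP1 (6.20, others 6.36 to 6.38) and MS4A1, a B cell marker (3.29, others 3.50 to 3.53), were also low in vehicle replicate 1. PDGFRB, a receptor of pericytes and fibroblasts, was high in vehicle replicate 2 at 4.75 (others 4.46 to 4.50). In doxycycline replicate 3, ACVR1C was low at 4.49 (others 5.09 to 5.18) and HOMEZ at 4.93 (others 5.41 to 5.50).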

How the results depend on the processing

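Limma called 0 genes and 0 members over all genes in all 19 alternatives, an adjusted p under 0.1 included, and all members that could be tested kept their sign in each. The median member difference lay between 0.25 and 0.45. It was 0.35 with array medians centred or after quantile normalization, 0.33 after cyclic loess, and 0.26 with array weights, which gave vehicle replicate 1 a weight of 0.394. With each array left out in turn, 3 to 5 members had an unadjusted p under 0.05. Removing the dimmest 25% of genes removed CD36, and removing the dimmest 50% left 6 members. The labels do not say whether the replicate numbers pair the arrays. Same-numbered arrays correlated between -0.0487 and 0.148 in their deviations, and 4 of 8 correlated best with their own number. These values do not settle whether the arrays are paired. In both groups the members' mean deviations were higher in replicates 3 and 4 than in replicates 1 and 2. With the replicate block, limma called 0 genes (smallest adjusted p 0.981), and 6 in place of 4 members had an unadjusted p under 0.05. FABP4, ADIPOQ and CD36 were dim, which limits how far small differences can be read.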
